A study of Mus musculus with 12 samples.

Results

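The genes of insulin, PI3 kinase, Akt and FOXO signalling were examined in 3 mouse tissues, with and without an injection of unacylated ghrelin (UAG). The list holds 37 genes, and a gene was followed through the probe sets (groups of short probes for a transcript) that the array annotation assigns to that gene alone. On this rule 36 of the 37 genes had at least 1 probe set, and they had 100 probe sets together, out of 18193 genes and 34945 probe sets with a single gene name. Rps6kb1, S6 kinase 1, was not analysed here. The RNA came from gonadal white adipose tissue (WAT), from M. vastus lateralis muscle and from liver of female mice aged 12 weeks, on a C57BL/6 background. All animals, controls included, were knockouts for GHSR, the receptor of acylated ghrelin, so no array shows these genes in a mouse that has the receptor. They were killed 6 h after an intraperitoneal injection of saline or of UAG at 20 nmol/kg. UAG is ghrelin that lacks the acyl group needed to activate this receptor. Each tissue had 2 saline and 2 UAG arrays, 12 arrays in all. The study's methods give n = 2 for the saline and UAG mice that supplied the 3 tissues, so arrays of different tissues probably share mice. The labels do not say which arrays do, and the tests across tissues take the 12 arrays as independent. A p-value here measures the spread between these arrays and may miss that between animals.

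Values are intensities, returned from the deposited log2 scale, with those below 30 set to 30, which is called the floor. Where 4 values of a tissue are given, the saline arrays 1 and 2 come first and the UAG arrays 1 and 2 follow. A gene is given at its brightest probe set, and a probe's brightness depends on its sequence, so levels are compared for a gene across arrays and never between genes. The labelled tissues carried their own markers. The muscle fibre genes Ckm, Acta1, Myh4, Mylpf, Tnnt3 and Actn3 summed to between 88570 and 93360 on the muscle arrays and to between 180 and 303 in liver. The 6 hepatocyte genes summed to between 77920 and 108500 in liver, 13090 and 16410 in WAT and 3248 and 12030 in muscle. Outside liver nearly all of that sum was Cyp2e1, at 12830 to 16070 in WAT and 3049 to 11690 in muscle. Albumin, Alb, was at 10620 to 15550 in liver and at 79.38 to 219.3 in the other tissues, Ttr was above the floor only on WAT saline replicate 2 (36.2) outside liver, and Apoa1, Apob and Fgb were at the floor on every WAT and muscle array. The muscle arrays also carried fat cell RNA. The sum of the 5 measured white adipocyte markers was 25740 to 40310 in muscle, 47510 to 56840 in WAT and 380 to 469 in liver, and none of the 5 was at the floor in muscle. The sum of 5 brown adipocyte markers was 11330 to 18740 in muscle. The largest part of it was Cox8b, at 8051 to 10590 in muscle and 789 to 5296 in WAT. Ucp1 was at 1043 to 3713 in muscle. The source of the Cox8b signal in muscle was not tested. Within a tissue, several arrays stood apart in marker sums. WAT saline replicate 1 had a brown adipocyte sum of 19370, against 1881 to 3903 on the other WAT arrays, and a muscle fibre sum of 3552, against 888 to 1571. WAT saline replicate 2 had a smooth muscle sum of 24010, against 3219 to 4556. Muscle saline replicate 2 had a sum of mesothelial and epithelial markers of 1707, against 150 to 465 on the other muscle arrays, from Krt19 and Krt8. Muscle UAG replicate 2 had a neutrophil sum of 6683, against 218 to 413. Smaller departures were seen too. WAT UAG replicate 1 had a mesothelial and epithelial sum of 3936, against 2003 to 2304 on the other WAT arrays. The hepatocyte sum was 3248 on muscle saline replicate 1, against 7809 to 12030, and 108500 on liver UAG replicate 2, against 77920 to 84360. The ratio of 3′ to 5′ signal of the Actb controls, a sign of RNA integrity, was 0.898 to 1.13 in muscle, 1.70 to 1.96 in WAT and 1.70 to 2.36 in liver. In whole tissue, fewer cells of a type and less RNA per cell cannot be told apart.

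Insulin binds a receptor kinase at the cell surface, which phosphorylates adaptor proteins called insulin receptor substrates. These recruit PI3 kinase, whose lipid product brings Akt to the membrane, where it is activated by phosphorylation. Akt then acts on several branches: it relieves the brake on GLUT4 vesicles in muscle and fat, inhibits glycogen synthase kinase, releases mTOR complex 1 from the TSC proteins, and keeps FOXO transcription factors out of the nucleus. The pathway is regulated mostly on the protein, by phosphorylation, which an RNA array does not measure.

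**Figure D1:**
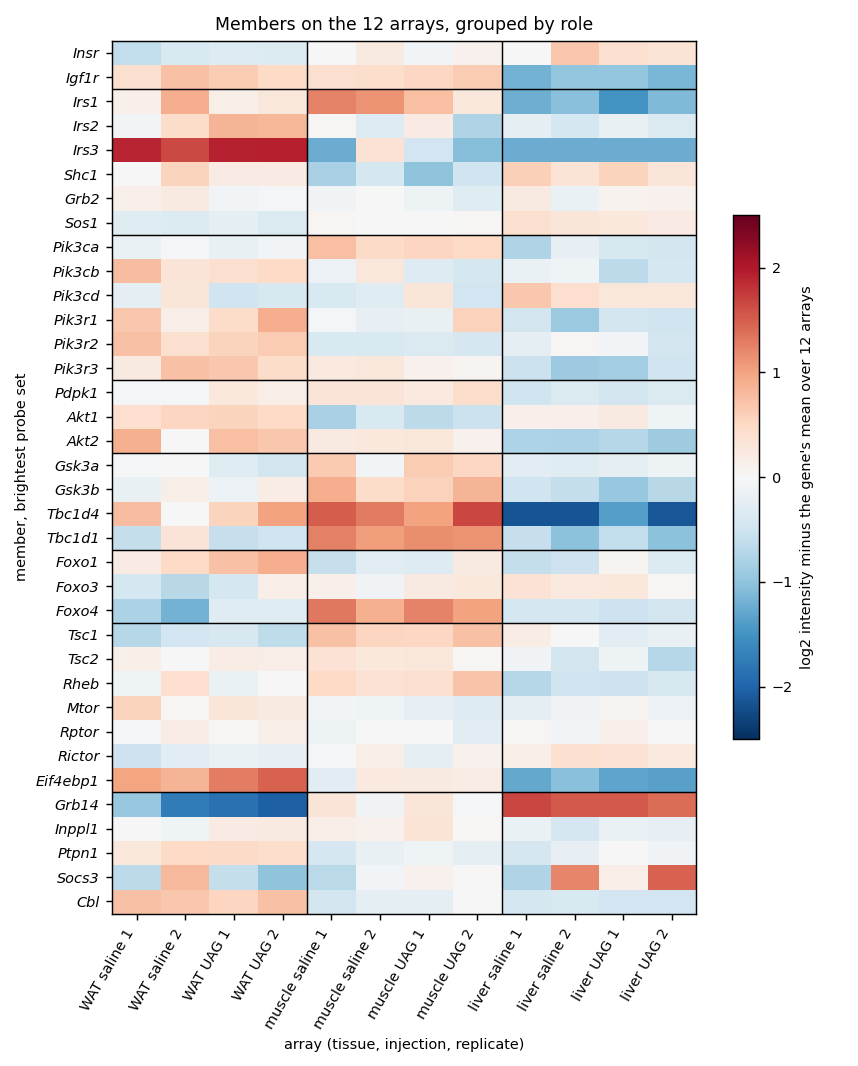
Each row is a member at its brightest probe set and each column an array, with black lines between tissues and between roles. Colour is the log2 intensity minus the mean of that gene over the 12 arrays, from -2.5 (blue) to 2.5 (red). Irs3, Grb14, Tbc1d4 and Eif4ebp1 show the strongest colour, and it follows the tissue and not the injection.

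The first comparison asks how the pathway differs between the 3 tissues, whatever was injected. Most members differed between WAT and liver. Of 36 members tested, 22 were higher in WAT and 7 higher in liver by limma at an adjusted p under 0.05, where 35.6% of all 12594 genes tested were higher in WAT and 27.3% higher in liver. Between muscle and liver, 17 were higher in muscle and 5 in liver, against 35.2% and 31.1% of all genes. Between WAT and muscle, 12 were higher in WAT and 14 in muscle, against 32.9% and 23% of all genes. In all, 80.6% of the members were called between WAT and liver (62.9% of all genes), 61.1% between muscle and liver (66.3%) and 72.2% between WAT and muscle (55.9%). A called difference of at least 2-fold was found for 10, 12 and 7 members in these pairs, that is 27.8, 33.3 and 19.4%, beside 30.8, 34.4 and 21.6% of all genes. The mean level was highest in WAT for 15 members, in muscle for 12 and in liver for 9. At the brightest probe set, Grb2, Rptor and Socs3 passed the test in no pair. A dimmer probe set of Grb2 passed in all 3, with differences of -1.10 for WAT against liver, -0.48 for muscle against liver and -0.62 for WAT against muscle (adjusted p = 6.38e-05, 0.0142 and 0.00422), and a dimmer one of Socs3 passed in both pairs with liver (-0.72 and -1.13, adjusted p = 0.0332 and 0.00283). The pairs share arrays, so they are not independent of each other.

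Of the receptors, the insulin receptor gene Insr was highest in liver and the IGF-1 receptor gene Igf1r was lowest there. Its readings were 558, 879, 728 and 697 in liver, 551, 642, 529 and 598 in muscle and 361, 422, 442 and 434 in WAT. Insr was at 715 ± 132 in liver, 579.7 ± 50.3 in muscle and 415 ± 37.02 in WAT (SD, n = 4 arrays). The liver and muscle arrays overlapped and did not differ by the test (adjusted p = 0.0947), and liver exceeded WAT by 0.77 on the log2 scale (standard error 0.14, adjusted p = 6.57e-04). Igf1r read 206.9, 261, 242 and 222 in WAT, 205.9, 213, 225 and 244 in muscle. The liver readings were 68.9, 79.0, 79.9 and 70.4. No liver array reached the lowest WAT or muscle array, while WAT and muscle overlapped. WAT over liver was 1.64 (standard error 0.13, adjusted p = 8.91e-07) and muscle over liver 1.57 (adjusted p = 1.06e-06).

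The insulin receptor substrates Irs1 and Irs3 were higher in WAT than in liver. Irs3, a rodent substrate known from fat cells, read 266, 224, 269.9 and 274 in WAT. It was at the floor of 30 on all 4 liver arrays, and read 30, 91.1, 51.0 and 33.9 in muscle. All WAT arrays were above all muscle arrays, and the WAT mean of 259 ± 23.0 was at least 8.62-fold that of liver, since the floor bounds the liver value. The muscle array with the most Irs3, saline replicate 2, was also the muscle array with the highest white adipocyte sum (40310), and saline replicate 1, at the floor, had the lowest (25740). The part of fat cells in the muscle level of Irs3 was not tested. On the log2 scale WAT exceeded muscle by 2.47 (standard error 0.29, adjusted p = 5.23e-05).

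Irs1, the main substrate of muscle and fat, read 1967, 1816, 1400 and 1010 in muscle, 911, 1568, 922 and 1016 in WAT and 355, 401, 294 and 387 in liver. It was at 1548 ± 432 in muscle, 1104 ± 313 in WAT and 359 ± 47.8 in liver. Muscle exceeded liver by 2.07 on the log2 scale (standard error 0.18, adjusted p = 1.51e-06) and WAT exceeded liver by 1.59 (adjusted p = 1.56e-05). The arrays of WAT and muscle overlapped, with a difference of -0.48 (adjusted p = 0.0410). Irs2, the substrate best known from liver, was measured at a dim probe set, at 96.9 ± 26.4 in WAT, 58.2 ± 16.1 in muscle and 53.2 ± 4.15 in liver.

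Shc1 and Sos1, which lead to the Ras branch, had their highest mean in liver. Shc1, an adaptor, read 348, 512, 401 and 402 in WAT, 200.2, 257, 174 and 247 in muscle. Liver read 528, 446, 518 and 434. The muscle arrays were below all others. Muscle was 1.15 lower than liver on the log2 scale (standard error 0.16, adjusted p = 9.71e-05), and WAT was 0.93 higher than muscle (adjusted p = 7.33e-04). The WAT and liver arrays overlapped and did not differ by the test (difference -0.22, adjusted p = 0.2675). A dimmer probe set of Shc1 had the higher mean in WAT, 199.2 against 181.9 in liver (adjusted p = 0.509). Sos1, the exchange factor that loads Ras with GTP, read 478, 445, 433 and 418 in liver, 376, 359.6, 366 and 367 in muscle and 293, 284, 305 and 282 in WAT. It was at 444 ± 25.5 in liver, 367 ± 6.59 in muscle and 291 ± 10.3 in WAT, and the 3 sets of arrays did not overlap. Liver exceeded WAT by 0.61 (standard error 0.09, adjusted p = 1.37e-04). Its muscle to liver difference of -0.27 (adjusted p = 0.0200) lost the call without liver saline replicate 1 (adjusted p = 0.0522) and without liver UAG replicate 1 (0.05027).

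Of the 6 PI3 kinase subunits, 4 had their lowest mean in liver. Pik3r1, the regulatory subunit p85 alpha, was at 1627 ± 352 in WAT, 1158 ± 326 in muscle and 734 ± 108 in liver. Pik3r3, the subunit p55 gamma, was at 126 ± 19.4, 98.1 ± 6.68 and 53.9 ± 8.09. The catalytic subunit p110 alpha, Pik3ca, was highest in muscle (464 ± 41.9), followed by WAT (289.9 ± 15.6) and liver (229.6 ± 34.5). Pik3r2, p85 beta, read 225, 179, 200.2 and 211 in WAT, 105, 105, 106 and 101 in muscle. Its liver values were 115, 140, 130 and 98.8. Every WAT array was above every muscle and liver array, and WAT exceeded muscle by 0.97 on the log2 scale (standard error 0.14, adjusted p = 2.32e-04). Pik3cb, p110 beta, was also highest in WAT (205 ± 29.6). Pik3cd, the leukocyte subunit p110 delta, was an exception. It read 461, 388, 352 and 350.3 in liver, 244, 356, 204 and 219 in WAT and 222, 233, 357 and 207 in muscle. Its mean was 388 ± 51.7 in liver against 256 ± 68.9 in WAT and 255 ± 69.2 in muscle. Its difference of -0.63 from liver in each case (adjusted p = 0.0102 for WAT, 0.00920 for muscle) rested on 1 probe set, and became -0.07 and -0.06 when its 6 probe sets were averaged.

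Akt1 and Akt2 differed in the tissue that was lowest. Akt1 read 479, 518, 524 and 507 in WAT, 203, 275, 228 and 245 in muscle. On the liver arrays it was at 392, 388, 416 and 333. Muscle lay below all other arrays, 1.10 lower than WAT on the log2 scale (standard error 0.12, adjusted p = 3.03e-05) and 0.69 lower than liver (adjusted p = 4.58e-04). Akt2, the main Akt of insulin-responsive tissues, was lowest in liver, at 436 ± 22.1 against 878 ± 46.0 in muscle and 1154 ± 278 in WAT. WAT saline replicate 2 had the lowest WAT reading of Akt2, 757, beside 1397, 1265 and 1199. A dimmer probe set of Akt2 was lower in WAT than in muscle (difference -0.94, adjusted p = 0.00711), where the brightest was not called (0.36, adjusted p = 0.0858). Pdpk1, the kinase PDK1 that phosphorylates Akt, was at 729.8 ± 40.0 in muscle, 616 ± 70.3 in WAT and 433 ± 20.2 in liver.

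Among the substrates of Akt, both regulators of GLUT4 vesicles had their lowest mean in liver. Tbc1d4, or AS160, which holds GLUT4 vesicles inside the cell, read 432, 252, 374 and 511 in WAT, 729.8, 629, 511 and 807 in muscle. The liver readings were 57.2, 57.3, 98.4 and 57.6. Muscle exceeded liver by 3.33 on the log2 scale (standard error 0.23, adjusted p = 2.77e-07) and WAT exceeded liver by 2.53 (adjusted p = 3.25e-06). WAT and muscle were closer, and their difference of -0.80 (adjusted p = 0.0136) lost its call when any of 4 arrays was left out (WAT saline replicate 2, WAT UAG replicate 1, muscle saline replicate 1 or muscle UAG replicate 2), with adjusted p of 0.05005 to 0.06126. Its relative Tbc1d1, known from skeletal muscle, read 279.9, 241, 260.0 and 253 in muscle. In WAT it read 77.4, 145, 77.9 and 82.2, the 145 being saline replicate 2, the array with smooth muscle RNA. In liver it read 77.8, 57.6, 75.6 and 57.1. Muscle stood above all other arrays, by 1.49 over WAT (standard error 0.20, adjusted p = 1.45e-04) and 1.96 over liver (adjusted p = 8.61e-06). For Tbc1d1 the WAT and liver arrays overlapped and did not differ by the test (difference 0.47, adjusted p = 0.068). The glycogen synthase kinases Gsk3a and Gsk3b were highest in muscle as well, at 1013 ± 212 and 733 ± 107.

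The 3 FOXO factors each had another pattern. Foxo1 was highest in WAT, at 734 ± 149 against 416 ± 102 in muscle and 384 ± 83.9 in liver, and muscle and liver did not differ by the test (adjusted p = 0.546). Foxo3 was lowest in WAT, at 268 ± 73.6 against 367 ± 37.4 and 389 ± 36.5. Foxo4 read 126, 96.0, 176 and 175 in WAT, 543, 401, 517 and 434 in muscle. Liver read 159.7, 161, 153 and 157. Muscle exceeded every other array. It was 1.76 higher than WAT on the log2 scale (standard error 0.14, adjusted p = 2.56e-06) and 1.58 higher than liver (adjusted p = 1.80e-06).

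In the TSC and mTOR branch the repressor of cap-dependent translation, Eif4ebp1, followed the order WAT, muscle, liver. It read 3486, 3208, 4270 and 4940 in WAT, 1480, 2098, 2080 and 2012 in muscle. Its liver values were 727, 856, 711 and 694. The 3 sets of arrays were apart. WAT exceeded liver by 2.40 on the log2 scale (standard error 0.12, adjusted p = 2.45e-08) and muscle by 1.05 (adjusted p = 4.47e-05). Tsc1, hamartin, which with tuberin restrains mTOR complex 1, read 345, 304, 299 and 344 in muscle, 237, 206, 173 and 185 in liver and 127, 149.7, 158 and 134 in WAT. It was at 323 ± 24.8 in muscle, 200 ± 28.0 in liver and 142 ± 14.3 in WAT, and WAT was 1.19 lower than muscle (standard error 0.12, adjusted p = 1.95e-05). Rheb, the GTPase that activates the complex, was at 3026 ± 343 in muscle, 2225 ± 432 in WAT and 1489 ± 133 in liver. Rictor, of mTOR complex 2, was called in the WAT to liver pair alone. It read 136, 161, 173 and 169.5 in WAT, 220.1, 258, 252 and 230.1 in liver and 190.5, 217, 166 and 209 in muscle, with means of 159.9 ± 16.6 in WAT and 240.1 ± 18.0 in liver (difference -0.59, adjusted p = 0.00212). Rptor, of mTOR complex 1, had means between 211 and 239. Mtor was higher in WAT than in liver by 0.38 at its brightest probe set, while another of its 3 probe sets was lower in WAT (difference -0.69, adjusted p = 0.00788).

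Of the inhibitors of the pathway, Grb14, an adaptor that blocks the kinase of the insulin receptor, differed most. It read 792, 725, 720.0 and 656 in liver, 314, 236, 307 and 241 in muscle, and 129, 74.4, 69.0 and 60.8 in WAT. The 3 tissues did not overlap. Liver exceeded WAT by 3.18 on the log2 scale (standard error 0.18, adjusted p = 5.73e-08) and muscle by 1.41 (adjusted p = 3.92e-05), and muscle exceeded WAT by 1.77 (adjusted p = 1.71e-05). Liver thus had the highest means of both Insr and Grb14. Ptpn1, or PTP1B, a phosphatase of the insulin receptor, was highest in WAT at its brightest probe set, at 494 ± 33.6 against 315 ± 28.2 in muscle and 327 ± 39.0 in liver. Its dimmer probe set had means of 205 in WAT, 216.5 in liver and 125 in muscle, with no call between WAT and liver (difference -0.09, adjusted p = 0.627), and muscle was lower than liver (-0.79, adjusted p = 6.37e-04). The ubiquitin ligase Cbl was highest in WAT, at 375 ± 22.9 against 202 ± 27.3 and 173 ± 5.41. The lipid phosphatase SHIP2, Inppl1, stayed within means of 249 and 326. Socs3, a suppressor induced by cytokines, ranged from 107 to 502 within liver, more than between the tissue means.

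**Figure D2:**
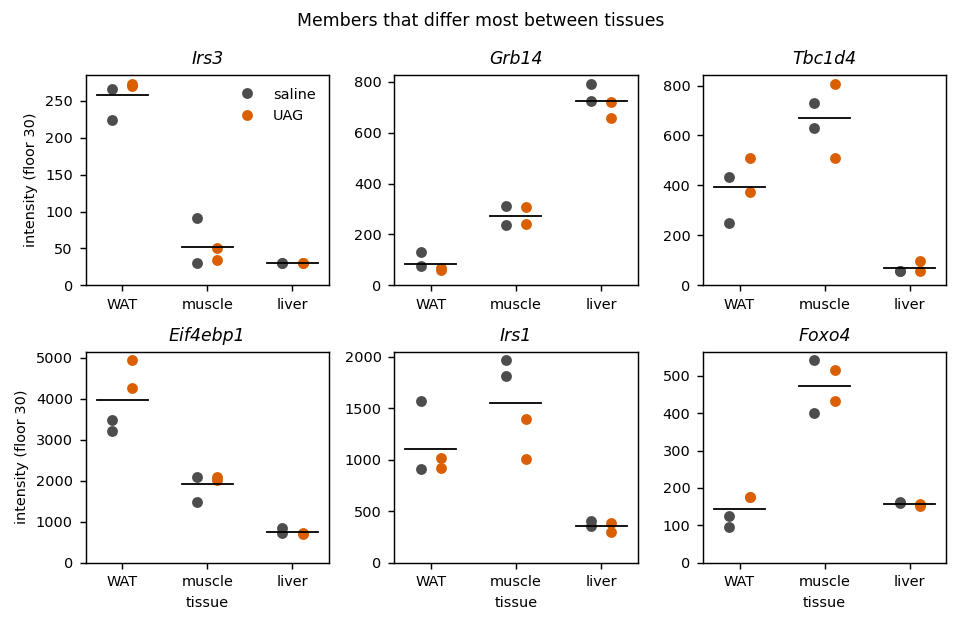
Intensity (floor of 30, linear axes from 0) of 6 members that differ between tissues, with a point per array, grey for saline and orange for UAG, and a line at the mean of the 4 arrays of a tissue. Irs3 and Eif4ebp1 are highest in WAT, Grb14 in liver, and Tbc1d4, Irs1 and Foxo4 in muscle.

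The bases before the transcription start are shown for the 3 members with the widest ratio of highest to lowest tissue mean, Tbc1d4 (9.89), Grb14 (8.67) and Irs3 (at least 8.62, since liver is at the floor), and for Foxo1, on which the UAG comparison below turns. They come from RefSeq on GRCm38.p6, run from 250 bases upstream to the base before the start, and read 5′ to 3′ along the gene. The Tbc1d4 window is chr14:101609192-101609441 on the minus strand, Grb14 chr2:65022767-65023016 on the minus strand, Irs3 chr5:137645715-137645964 on the minus strand and Foxo1 chr3:52268087-52268336 on the plus strand. Capitals mark the matches, on either strand, to any of 7 motifs searched, named further on.
Tbc1d4: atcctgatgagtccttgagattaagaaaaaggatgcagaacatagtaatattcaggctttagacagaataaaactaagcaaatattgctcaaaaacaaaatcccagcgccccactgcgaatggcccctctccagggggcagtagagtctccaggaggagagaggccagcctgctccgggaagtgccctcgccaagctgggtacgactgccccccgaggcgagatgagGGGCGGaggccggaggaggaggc
Grb14: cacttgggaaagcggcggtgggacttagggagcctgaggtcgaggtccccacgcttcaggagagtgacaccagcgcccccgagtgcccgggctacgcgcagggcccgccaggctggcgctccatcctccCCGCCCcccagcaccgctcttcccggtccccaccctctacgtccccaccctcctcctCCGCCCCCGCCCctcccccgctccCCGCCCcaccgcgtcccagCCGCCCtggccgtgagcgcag
Irs3: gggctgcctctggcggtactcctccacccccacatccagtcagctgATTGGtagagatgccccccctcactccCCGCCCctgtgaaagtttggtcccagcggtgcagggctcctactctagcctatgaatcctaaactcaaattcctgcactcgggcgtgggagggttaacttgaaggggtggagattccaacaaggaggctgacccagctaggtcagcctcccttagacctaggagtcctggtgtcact
Foxo1: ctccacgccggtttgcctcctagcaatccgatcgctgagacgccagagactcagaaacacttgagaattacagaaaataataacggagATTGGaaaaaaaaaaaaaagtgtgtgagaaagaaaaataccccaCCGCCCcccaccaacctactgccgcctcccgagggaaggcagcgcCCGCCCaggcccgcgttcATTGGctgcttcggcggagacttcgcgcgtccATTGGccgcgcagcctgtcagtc
Windows were found for 34 members, 48 in all, and were compared with 32851 windows of all genes. The GC box GGGCGG was in 64.6% of the members' windows and 32.7% of all. The CCAAT box CCAAT was in 35.4% and 33.8%, the TATA box TATAAA in 6.2% and 12.4%, the E-box CACGTG in 6.2% and 6.0%, the STAT motif TTCNNNGAA in 6.2% and 7.0%, the forkhead motif GTAAACA in 2.1% and 3.2%, and the CRE TGACGTCA in 0% and 1.5%. The matches in the windows shown are GC boxes in all 4, with CCAAT boxes in Irs3 and Foxo1. The median GC content was 61.0% in the members' windows and 52.4% in all, with 75.2% in Grb14 and 54.8% in Tbc1d4. A match describes the letters and does not show binding.

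The next comparison asks what UAG did to the pathway 6 h after injection, in each tissue. No member passed limma at an adjusted p under 0.05 in WAT, muscle or liver, and of all 11981, 11894 and 11850 genes tested there the share called was 0% in each. The smallest adjusted p of a member was 0.683 in WAT, 0.9999 in muscle and 0.9998 in liver. At an unadjusted p under 0.05, 5 of 36 members stood in WAT, 1 of 36 in muscle and 1 of 35 in liver, where 853, 220 and 401 of all genes did. Irs3 was below the intensity filter in liver. The median log2 difference, UAG minus saline, was 0.04 in WAT (all genes 0.03), -0.01 in muscle (0.01) and 0.01 in liver (0.01). With the 79, 81 and 77 probe sets of the members that could be tested in the 3 tissues, in place of the brightest, the count remained 0. With 2 arrays a group, a p that misses the threshold does not show that the levels were alike.

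In WAT both UAG arrays exceeded both saline arrays for 10 of 36 members and lay below them for 4, beside 24% and 14.2% of all genes. In muscle the counts were 3 and 5 of 36 (11.8% and 9.77% of all genes), and in liver 4 and 9 of 35 (15.2% and 14.4%). By the 2-fold ratio of mean intensities that the study's methods use, which carries no p-value, 1 member passed in WAT, 0 in muscle and 0 in liver, beside 2.46%, 0.639% and 0.608% of all genes.

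**Figure D3:**
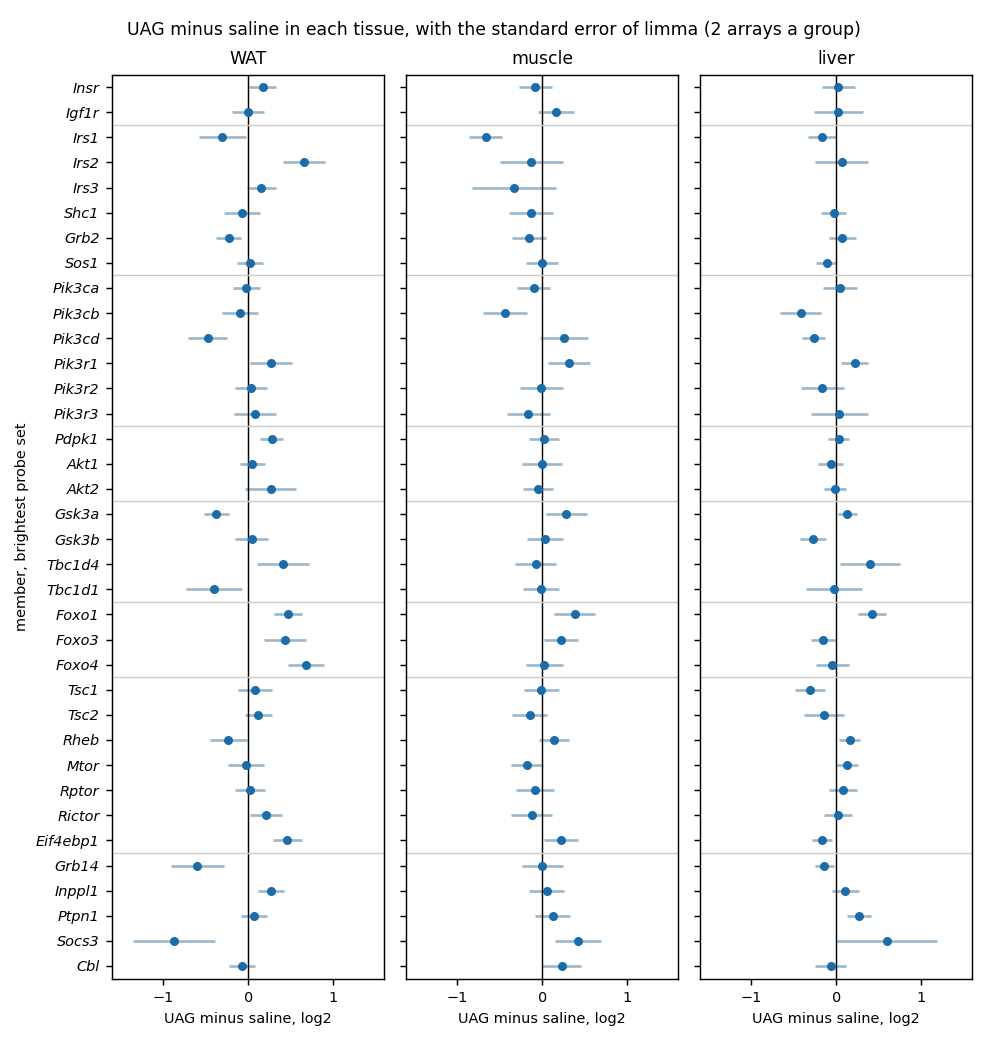
Log2 difference, UAG minus saline, of each member in WAT, muscle and liver, with bars for the standard error that limma gives from 2 arrays a group. Points right of the line are higher after UAG. All points lie between -0.87 and 0.68, and the FOXO factors are right of the line in WAT.

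In WAT the member past 2-fold was Socs3. It read 116 and 316 on the saline arrays and 120 and 90.8 on the UAG arrays, a ratio of means of 0.488. The groups overlapped, since the high saline value was that of replicate 2 alone, the array with the smooth muscle RNA. It also had the highest neutrophil marker sum of the WAT arrays (649.7 against 133 to 183). That sum came from S100a8 (356.8) and S100a9 (232.9), while Ngp and Camp were at the floor on every WAT array. Without saline replicate 2 the log2 difference of Socs3 moved from -0.87 to -0.15, and the part of other cells was not tested. Its 2 other probe sets went the same way, by -0.66 and -0.57, with the groups apart. Foxo4 read 126 and 96.0 on saline and 176 and 175 after UAG, a log2 difference of 0.68 (standard error 0.21, adjusted p = 0.683). Irs2 read 62.7 and 89.7 on saline and 119 and 117 after UAG, a difference of 0.65 (standard error 0.25, adjusted p = 0.730). Both were apart between the groups, and the Irs2 difference was 0.39 without WAT saline replicate 1. Grb14 read 129 and 74.4 on saline and 69.0 and 60.8 after UAG, a difference of -0.60 (standard error 0.31). The 129 was on WAT saline replicate 1, the array with the brown adipocyte RNA, and the difference was -0.20 without that array and -0.998 without saline replicate 2. Eif4ebp1 was apart as well, from 3486 and 3208 on saline to 4270 and 4940 after UAG (0.46), as was Gsk3a, from 722 and 739.9 to 594 and 533 (-0.38).

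The WAT saline arrays differed more from each other than the WAT UAG arrays did. The SD of the log2 difference between partners was 0.605 and 0.402, beside 0.640 for muscle saline and 0.651 for liver saline arrays. On saline replicate 2 the readings of Irs1 (1568), Rheb (2859), Shc1 (512), Pik3cd (356) and Tbc1d1 (145) were the highest of the 4 WAT arrays, and those of Akt2 (757), Tbc1d4 (252), Mtor (529) and Pik3r1 (1219) the lowest. These are examples. Other members, such as Grb2 and Socs3, also had an extreme on that array, and the share over all genes was not counted. The array differed in cell markers from its partner, and the part of this in the readings was not tested.

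In muscle the substrate Irs1 had the largest difference. It read 1967 and 1816 on the saline arrays and 1400 and 1010 after UAG, a log2 difference of -0.67 (standard error 0.20, adjusted p = 0.9999), with the groups apart. The lower of the UAG readings was on replicate 2, the array with the neutrophil RNA. Without it the difference was -0.43, and replicate 1 was also below both saline arrays. All 6 substrates and adaptors had a negative difference in muscle, from -0.67 for Irs1 to -0.01 for Sos1, with the groups apart for Irs1 and Grb2. Pik3cb read 129.9 and 174 on saline and 115 and 106 after UAG, a difference of -0.44 (standard error 0.26) with the groups apart, which was -0.23 without muscle saline replicate 2. Socs3 read 114 and 173 on saline and 194 and 181 after UAG (0.42), also apart. Its difference was 0.12 without muscle saline replicate 1 and 0.72 without muscle saline replicate 2. Irs3 read 30 and 91.1 on saline and 51.0 and 33.9 after UAG. Its ratio of means passed 2-fold where muscle saline replicate 1 was left out.

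In liver, Pik3cb read 129 and 133 on saline and 90.8 and 106 after UAG, a difference of -0.42 (standard error 0.24, adjusted p = 0.9998), with the groups apart as in muscle. Tbc1d4 read 57.2 and 57.3 on saline and 98.4 and 57.6 after UAG (0.39), so its difference came from 1 array, liver UAG replicate 1, without which it was 0.01. Socs3 read 107 and 420.1 on saline and 203 and 502 after UAG (0.59, standard error 0.59), with a spread between partners larger than the difference. It became -0.40 without liver saline replicate 1, -0.06 without liver UAG replicate 2 and 1.24 without liver UAG replicate 1. Without liver saline replicate 2 it was 1.58, and its ratio of means passed 2-fold. Among the enzymes nearer to the receptor, Ptpn1 was apart and higher after UAG, from 276 and 319.6 to 366 and 348 (0.26).

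Foxo1 had a higher mean after UAG in every tissue at each of its probe sets above the floor. At its brightest probe set it read 555 and 681 on saline and 802 and 898 after UAG in WAT, 324 and 393 against 384 and 561 in muscle, and 318 and 335 against 504 and 378 in liver. The groups were apart in WAT and liver and overlapped in muscle. The log2 differences were 0.47 (standard error 0.17, adjusted p = 0.718), 0.38 (0.24, 0.9999) and 0.42 (0.16, 0.9998). The muscle difference was 0.11 without UAG replicate 2, the array with the neutrophil RNA, 0.24 without saline replicate 1 and 0.65 without UAG replicate 1, and the liver difference was 0.21 without UAG replicate 1. A further probe set read 395 and 478 against 568 and 641 in WAT, 282 and 288 against 429 and 502 in muscle, and 303 and 243 against 399 and 346 in liver. It was apart in all 3 tissues, with differences of 0.47, 0.71 and 0.45. The third read 369.7 and 476 against 584 and 651 in WAT, 254 and 285 against 353 and 538 in muscle, and 379.8 and 304 against 445 and 362 in liver, where it overlapped. Of these 9 comparisons, 9 were higher after UAG, 7 had the groups apart and 7 had an unadjusted p under 0.05, while no adjusted p passed. Among all genes at their brightest probe set, 24% were apart and higher in WAT, 11.8% in muscle and 15.2% in liver. An unadjusted p under 0.05 was found for 7.12%, 1.85% and 3.38% of them. The 3 probe sets read the same RNA and the 3 tissues probably share mice, so the 9 comparisons are not replicates of each other. The fourth probe set was at the floor on every array.

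**Figure D4:**
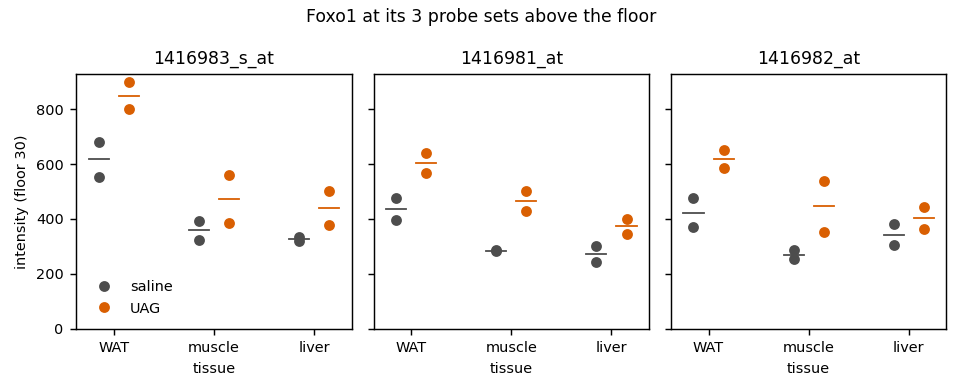
Intensity of Foxo1 (floor of 30, linear axis from 0) at its 3 probe sets above the floor with a point per array and a line at the mean of 2 arrays. The UAG points (orange) have the higher mean in all 9 comparisons, and the groups overlap in muscle at the left probe set and in liver at the right.

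Averaged over the 3 tissues in a fit of all 12 arrays, the UAG difference passed the test for 0 of 36 members and for 0.0318% of all genes. The difference was 0.42 for Foxo1 (standard error 0.12, adjusted p = 0.683), -0.38 for Irs1 (standard error 0.14, adjusted p = 0.853) and -0.32 for Pik3cb (standard error 0.12, adjusted p = 0.861). These 3 of 36 were the members with an unadjusted p under 0.05, beside 5.36% of all genes. The fit takes the 12 arrays as independent, though by the methods the 3 tissues probably came from the same mice, so its standard errors may be off. The sign of the difference was shared by all 3 tissues for 10 of 35 members (28.6%), beside 27.8% of all genes. Foxo1, Inppl1, Pdpk1, Pik3r1 and Ptpn1 were higher in each, and Irs1, Pik3cb, Shc1 and Tbc1d1 lower, as was Grb14, whose difference in muscle was 0 to 2 decimals (-7.16e-05).

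Whether UAG acted differently in the tissues was tested as the difference of the UAG differences. No member passed in any of the 3 pairs of tissues, and 0.00794% of all genes did. The smallest adjusted p was 0.973, for Eif4ebp1 and Foxo4 between WAT and liver, the 2 members with an unadjusted p under 0.05 in that pair. The difference of Eif4ebp1 was 0.46 in WAT and -0.17 in liver, that of Foxo4 0.68 and -0.05. Between WAT and muscle, Foxo4 (0.68 and 0.02) and Gsk3a (-0.38 and 0.28) had an unadjusted p under 0.05. The share of all genes at that level was not counted for these differences, so the members cannot be set against it. By role, the FOXO factors were higher for 3 of 3 in both WAT and muscle and for 1 of 3 in liver. Akt1, Akt2 and Pdpk1 were higher for 3 of 3 in WAT and for 1 of 3 in the other tissues, where the differences were small (-0.07 to 0.03). In WAT they were 0.05, 0.26 and 0.27, and the groups overlapped for Akt1 and Akt2. A dimmer probe set of Akt1 and of Akt2 went the other way in WAT (-0.08 and -0.09), and another of each went the same way (0.28 and 0.10).

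Other genes of the pathway were read from a list of 51 that leaves out the members. Of these 41 had a probe set, 37 could be tested in muscle, 37 in WAT and 36 in liver, and 0 passed the test after UAG. In WAT 23 were higher and 14 lower (median log2 difference 0.04), in muscle 15 and 22 (-0.04), and in liver 18 and 18 (0.01). The largest differences were those of Grb7, Deptor and Socs2 in WAT (-0.95, -0.57 and -0.53), each led by a single saline array. Ddit4, an inhibitor of mTOR complex 1 that responds to stress hormones, read 197 and 647 on saline and 579 and 854 after UAG in muscle (0.98), and 235 and 181 against 189 and 469.7 in liver (0.53), with overlap in both. In WAT Ddit4 read 665 and 692 against 803 and 959 (0.37), with the groups apart. Grb7 and Pik3cg followed in muscle (-0.51 and 0.43), and Pik3ip1 (0.70) and Sgk1 (0.43) in liver. Grb7 and Pik3cg in muscle and Pik3ip1 in liver were dim, each at the floor on a saline array. Their differences there are therefore uncertain. Between tissues, 27 of 38 were called for WAT against liver, 16 of them higher in WAT, where 62.9% of all genes were called. For muscle against liver 21 were called, 15 of them higher in muscle (66.3% of all genes), and for WAT against muscle 17, 9 of them higher in WAT (55.9%).

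Downstream genes of both kinds were read from lists: 23 genes that FOXO factors are known to activate, and 9 that insulin is known to induce. The lists were chosen with earlier results of these data known. No gene of either list passed the test in any tissue. FOXO target genes were higher after UAG for 13 of 20 tested in WAT, 13 of 21 in muscle and 13 of 22 in liver, with medians of 0.23, 0.09 and 0.05 on the log2 scale, beside 0.03, 0.01 and 0.01 for all genes. Groups were apart and higher for 7, 7 and 3 of them, beside 24%, 11.8% and 15.2% of all genes, and apart and lower for 1, 1 and 0, beside 14.2%, 9.77% and 14.4%. In WAT, Klf15, a factor of the fasting response, read 574 and 417 on saline and 715 and 911 after UAG, and in muscle 552 and 606 against 802 and 739. Sesn1, a sestrin, read 441 and 648 against 721 and 839.8 in WAT, and 560.1 and 457 against 593 and 787 in muscle. Trib1, a pseudokinase, read 79.1 and 86.6 against 124 and 139.8 in muscle. The groups were apart in each of these 5 comparisons, and those of Klf15 and Sesn1 were picked after their values were seen. In liver Klf15 (-0.09), Sesn1 (0.10) and Trib1 (0.13) overlapped. The largest differences of the list in WAT were negative, Apoc3 at -0.97, the ubiquitin ligase Fbxo32 at -0.93 and Ppargc1a at -0.89, and the last 2 each followed a single saline array (Fbxo32 904 on replicate 2, Ppargc1a 120 on replicate 1). In liver the genes of glucose release, Pck1 and G6pc, read 6767 and 9214 against 9104 and 9549, and 2160 and 2442 against 1856 and 3137, both with overlap. The largest differences there were Bcl6 (-0.38), Bnip3 (0.26) and Pck1 (0.24).

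Insulin-induced genes, most of them of glucose use and fatty acid synthesis, mostly had a lower mean after UAG, with no call. Of 8 measured, 6 were lower in WAT, 7 in muscle and 6 in liver, with medians of -0.62, -0.44 and -0.27, beside 0.03, 0.01 and 0.01 for all genes. The groups were apart and lower for 3, 5 and 0 of them, beside 14.2%, 9.77% and 14.4% of all genes. The study had already reported from these arrays that Acaca, Acly and Elovl6 tended to be lower after UAG in WAT and muscle. The list's medians and counts in these tissues are therefore not an independent test. In muscle the fatty acid elongase Elovl6 read 2352 and 1726 on saline and 691 and 1223 after UAG (-1.13), acetyl-CoA carboxylase Acaca 2104 and 2140 against 1098 and 1369 (-0.79), and ATP citrate lyase Acly 5604 and 2933 against 1568 and 2772 (-0.96). Their unadjusted p were 0.00281, 0.00162 and 0.0190, and their adjusted p 0.9999. These 3 genes are abundant in fat, and muscle saline arrays differed in white adipocyte sum (25740 and 40310) as the UAG arrays did (29210 and 33700), with ranges that overlap. The brown adipocyte sum was 18740 and 15350 on saline and 15900 and 11330 after UAG. Of this, Cox8b alone gave 10120 and 8558 on saline and 10590 and 8051 after UAG. The part of white or brown fat cells was not tested. In WAT, Elovl6 read 6899 and 1634 against 1038 and 1039 (-1.69), Acly 11010 and 4414 against 2778 and 4461 (-0.99) and Pnpla3 1389 and 183 against 234 and 330.3 (-0.86). All 3 were highest on saline replicate 1, the array with the brown adipocyte RNA, whose part was not tested. In liver the largest differences were those of Fasn (-0.42), Srebf1 (-0.35) and Scd1 (-0.31), all with overlap.

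**Figure D5:**
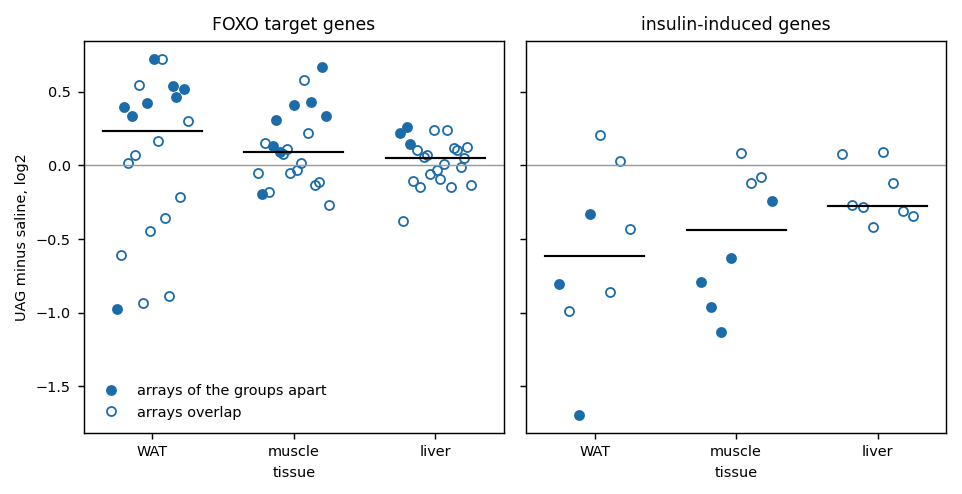
Log2 difference, UAG minus saline, of each measured gene of the FOXO target and insulin-induced lists by tissue. Filled points have all arrays of the groups apart, open points overlap, and the black line is the median, which is above 0 for the FOXO targets and below 0 for the insulin-induced genes in each tissue.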

How the data were processed

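RNA of 3 tissues was hybridized to Affymetrix Mouse Genome arrays, 2 per tissue and injection. The deposited table holds log2 intensity values that the authors had normalized before deposit. MAS5 is named in the submitters' processing notes with no version. Quantile normalization and a threshold of 30 are described in the methods, but 43.7% of the deposited values lie below 30. No source used here gives the base of the logarithm. With base 2 the highest value gives an intensity of 25720, and with base e 2305000, past the scanner maximum of 65535. Per-read depth does not exist for arrays, and their number limits the precision.

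Values below 30 were set to 30. The 64 control probe sets were left out, 932 named several genes and 9160 none in the annotation used. Where a gene had several probe sets, the brightest by its mean over the 12 arrays stood for it. limma 3.58.1 in R 4.3.3 was fitted with an intensity trend to log2 values after a filter on mean intensity (30 or more), separately per tissue for UAG against saline, and to the means of all 6 groups for differences between tissues, for the average UAG difference and for differences between UAG differences. The Benjamini-Hochberg adjustment ran over all probe sets fitted, and a member was called at an adjusted p under 0.05. Groups were also compared by the methods' 2-fold ratio of mean intensities. The fits were tested on simulated data. No array file column was left unread and no sample lacked a group.

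Named with every array's value were members called or past 2-fold after UAG, the 4 with the largest UAG difference per tissue, and the 5 with the largest called difference in each direction per pair of tissues. Other members are given by means or counts, and of the further lists the 3 largest differences per tissue. The array values of Akt2 and Ddit4 in WAT, of Eif4ebp1, Gsk3a, Foxo1 and Ptpn1 after UAG beyond this rule, and of Klf15, Sesn1 and G6pc were added after their values were seen. The members and lists were chosen with earlier results of these data known, so no p-value is given for a list. Alternatives were no floor and a floor of 100, no filter and a filter at 100, 2 other normalizations, the mean of all probe sets, no trend, a replicate block, a single fit, geometric means, saline or UAG arrays alone, and each array left out.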

Additional observations from a re-analysis of the deposited data

How the results depend on the processing

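After UAG, 0 members passed limma in each tissue under every alternative run, 15 in WAT and 14 each in muscle and liver. Leaving out an array gave 0 to 0 members in each tissue, 0 to 0 for the average over tissues and 0 to 0 for differences of UAG differences. With a floor of 100 the last 2 counts became 1 and 1, Irs2 in both, at a floor that sets 10 of its 12 values to 100. The cause was not tested. The WAT count past 2-fold, 1 (Socs3), became 0 with a floor of 100, 0 with the mean of all probe sets and 0 with geometric means, and ranged from 0 to 1 with an array left out (0 without WAT saline replicate 2 or WAT UAG replicate 2). In muscle and in liver leaving out an array gave 0 to 1, Irs3 without muscle saline replicate 1 and Socs3 without liver saline replicate 2. The Socs3 log2 difference in liver, 0.59, ranged from -0.40 (without saline replicate 1) to 1.58 (without saline replicate 2), with -0.06 without UAG replicate 2. The other 11 UAG differences named kept their sign throughout.

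Saline arrays alone called 18 members between WAT and liver, 17 between muscle and liver and 13 between WAT and muscle, all shared with the counts of 29, 22 and 26 from all arrays, in a fit of fewer arrays. UAG arrays alone, an alternative chosen after seeing the data, called 26, 19 and 22. With an array left out the counts were 24 to 29, 21 to 23 and 21 to 25. Of 30 named tissue differences under these alternatives, 676 of 690 values kept side and sign, 14 fell short of the threshold (Tbc1d4, Pik3cd and Sos1) and 0 reversed. Arrays on which a gene sits at the floor give only a bound.

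Whether a replicate number stands for the same mouse in each tissue is not stated. The correlation of the deviations of same-numbered saline and UAG arrays was -0.14 in WAT, 0.11 in muscle and -0.04 in liver. With the replicate number as a block, the counts after UAG stayed 0, 0 and 0, and those between tissues were 30, 23 and 26. Crossing the numbers in WAT, chosen after seeing the data, also gave 0.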
